A study of Homo sapiens with 5 samples.

Results

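The 3 arrays compared here were all labelled as LNCaP cells given the solvent dimethyl sulfoxide (DMSO) for 6 h. LNCaP is an established, androgen-responsive prostate cancer cell line derived from a lymph node metastasis. DMSO replicates 1 and 2 carried the transcripts of that line, and the array titled DMSO replicate 3 carried a lymphoid-like profile. Replicates 1 and 2 were therefore set on one side and replicate 3 on the other. The sides were chosen by their measured values, so every difference below is a description of 3 arrays and carries no test. The series holds 5 arrays, and the other 2, of LNCaP cells given celastrol, were not used. The titles call the arrays biological replicates, the description field of the DMSO samples speaks of celastrol, and the origin of the RNA on replicate 3 could not be checked from the labels.

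Luminal cells of the prostate are secretory epithelial cells. They are joined to their neighbours by cadherin-based junctions and desmosomes, carry the simple keratins 8 and 18, and secrete kallikrein proteases in response to androgens. B lymphocytes circulate as single cells, read antigen through a surface immunoglobulin, present peptides on MHC class II molecules and take instructions from cytokines, chemokines and TNF family ligands. Both cell types share the machinery of energy metabolism, protein synthesis and division, and they often use different members of 1 gene family for the same task. In a bulk sample, fewer cells of a type and less RNA per cell cannot be told apart.

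Levels are given as log2(intensity + 1), with the 3 values of a gene in the order replicate 1, replicate 2, replicate 3. A difference is the level on replicate 3 minus the mean of replicates 1 and 2, also on the log2 scale. Of 12143 genes, 1070 (8.81%) stood at least 2-fold higher on replicate 3 and 1436 (11.8%) at least 2-fold lower. These shares are the background for every gene list below. Between replicates 1 and 2, 0 genes were 2-fold apart, the largest difference was 0.91 (COL4A2, a chain of type IV collagen), and the median absolute difference was 0.0654. Their deposited values were exactly equal in 17.7% of probe sets, as were 8.09% between replicates 1 and 3 and 7.92% between replicates 2 and 3, so a spread of 0 between replicates 1 and 2 is no measure of their error. Across genes, which are not independent replicates, Pearson's r was 0.998 between replicates 1 and 2 and 0.827 between each of them and replicate 3. The median difference over all genes was 0.000218, and the 3 arrays had medians of 4.92, 4.92 and 4.93 over all probe sets. Of the genes higher on replicate 3, 502 lay below that median on replicates 1 and 2, so for them the fold is measured from the dim end of the scale.

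The markers that define the comparison separated into 2 sets of 4. KLK3, which encodes prostate-specific antigen, stood at 10.89, 10.71 and 4.56. FOLH1, the gene of the surface antigen PSMA, stood at 12.79, 12.85 and 4.43 and had the lowest difference of all genes at -8.39. The keratin gene KRT18 stood at 11.21, 11.23 and 4.41, and the E-cadherin gene CDH1 at 10.45, 10.45 and 5.89. On replicate 3 the first 3 of these lay below the median of the array, whereas CDH1 did not. CD74, the invariant chain that guides MHC class II molecules, stood at 4.44, 4.44 and 13.11 and had the highest difference of all genes at 8.67. MS4A1, which encodes the B cell surface protein CD20, stood at 4.52, 4.52 and 10.91. POU2AF1, a B cell coactivator of octamer-binding factors, stood at 4.17, 4.07 and 10.96. IRF4, a transcription factor of lymphocytes, stood at 4.50, 4.49 and 10.67. Probe sets of 1 gene did not always read alike: the other IRF4 probe sets differed by 2.96 and 0.04, and the other FOLH1 probe sets by -8.68, -7.44 and -1.02. By the probe sets used, all 4 lymphoid genes were dim on both replicates 1 and 2 and bright on replicate 3. All of the defining markers are also counted in the lists below that hold them. To that extent those counts follow from how the sides were chosen.

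**Figure D1:**
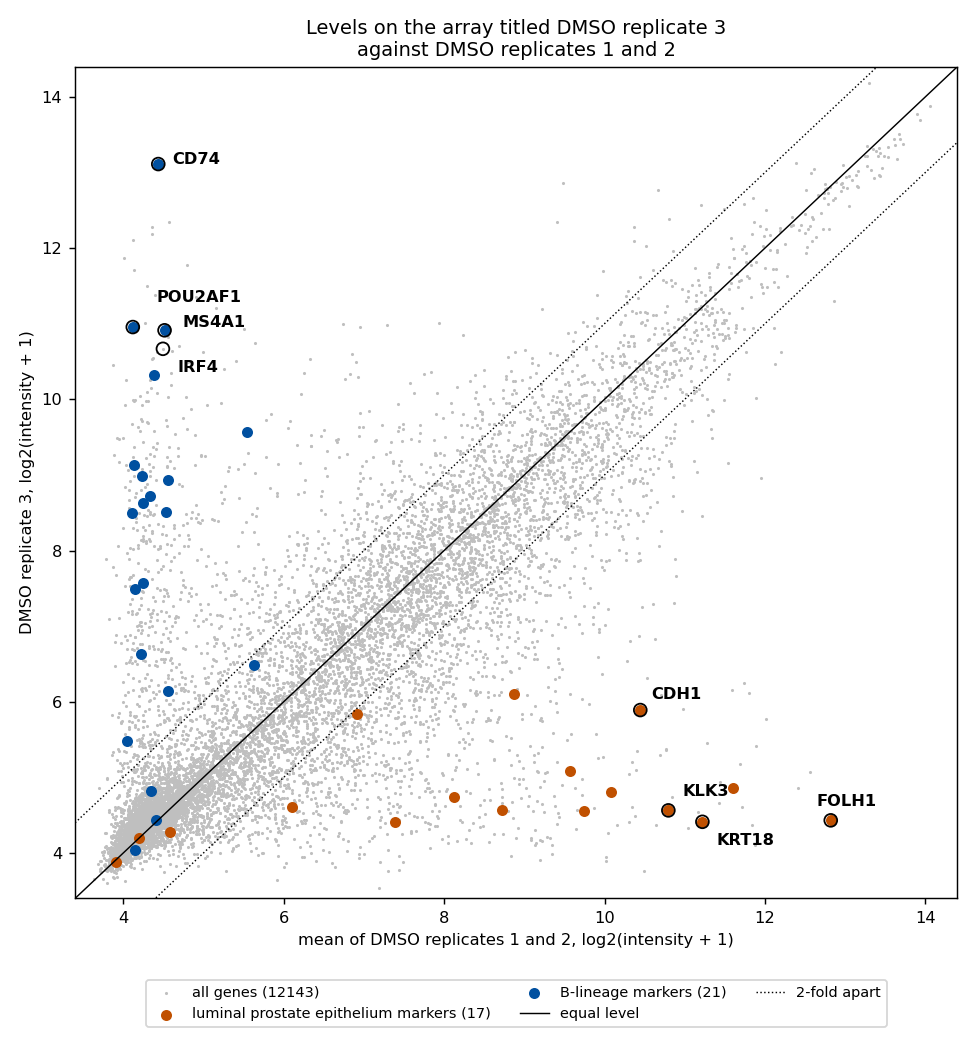
Each grey dot is 1 of 12143 genes, with the mean of DMSO replicates 1 and 2 on the x axis and DMSO replicate 3 on the y axis, both as log2(intensity + 1). Orange dots are 17 luminal prostate epithelium markers and blue dots 21 B-lineage markers, and the 8 ringed genes define the comparison. CD74 is at the upper left and FOLH1 at the lower right.

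Of 17 measured luminal prostate markers, 14 were at least 2-fold lower on replicate 3, 0 were higher, and the median difference was -4.15. Among the 14 are KLK3, FOLH1, KRT18 and CDH1, which define the comparison. STEAP1, which encodes a protein of the prostate cell surface, stood at 11.56, 11.65 and 4.86. ACP3, the prostatic acid phosphatase gene, stood at 10.00, 10.16 and 4.80, and the homeobox gene HOXB13 at 9.71, 9.76 and 4.56. On replicate 3, 13 of the 17 lay below the array's median. The 3 markers within 2-fold were TRPM8, MSMB and KRT19, which stood at 4.58, 3.90 and 4.19 on average over replicates 1 and 2, so they were dim there too.

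Of 21 B-lineage markers, 17 were at least 2-fold higher on replicate 3, 0 were lower, and the median difference was 4.02. CD74, MS4A1 and POU2AF1, which define the comparison, are among the 17. The genes of the signalling chains of the B cell receptor, CD79A and CD79B, stood at 4.20, 4.29 and 8.63 and at 4.22, 4.27 and 7.57. FCER2, which encodes the low-affinity IgE receptor CD23, stood at 4.46, 4.30 and 10.32. The complement receptor gene CR2 stood at 4.03, 4.19 and 8.50, and CD37, a tetraspanin of lymphocytes, at 4.06, 4.20 and 9.14. The 4 markers within 2-fold were FCRL2, POU2F2, PAX5 and BANK1, and PAX5, the commitment factor of B cells, stood at 4.37, 4.33 and 4.82. That defining B cell gene was therefore dim on all 3 arrays by its probe set.

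Among T cell, NK cell and myeloid markers, 11.8%, 20% and 14.3% were at least 2-fold higher, against 8.81% of all genes. Of 17 T cell markers, 2 were at least 2-fold higher, LCK and GATA3, while CD3D stood at 4.37, 4.30 and 4.37 and CD3E at 4.61, 4.38 and 4.25. Of 10 NK cell markers, 2 were higher, NKG7 and NCR3. Of 21 myeloid markers, 3 were higher, MNDA, CD86 and SPI1, and 1, CEBPA, was lower. Of 13 plasma cell markers, 8 were higher, among them the defining marker IRF4, and 1, SDC1, was lower. IGHM stood at 4.14, 3.99 and 8.80 and JCHAIN at 3.79, 3.79 and 7.88. IGHG1, IGKC, IGLL5 and XBP1 were within 2-fold, with IGKC at 4.03, 3.97 and 4.54 and IGHG1 at 5.76, 5.68 and 6.02. IGHA1, an immunoglobulin heavy chain gene outside this list, stood at 3.91, 3.83 and 10.46. Each immunoglobulin value is that of 1 probe set, and probe sets naming several genes were left out. These values therefore do not settle which immunoglobulin chains were expressed. None of 13 erythroid and megakaryocyte markers or 11 endothelial markers was 2-fold apart in either direction. ACTA2 was higher and FN1 lower among 15 fibroblast and muscle markers. DDC, the aromatic amino acid decarboxylase gene, differed by -6.47 and was the 1 of 10 neuroendocrine markers past 2-fold. ITGA6 was lower and DST higher among 10 basal epithelium markers. The part of any other cell type in the results below was not tested.

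**Figure D2:**
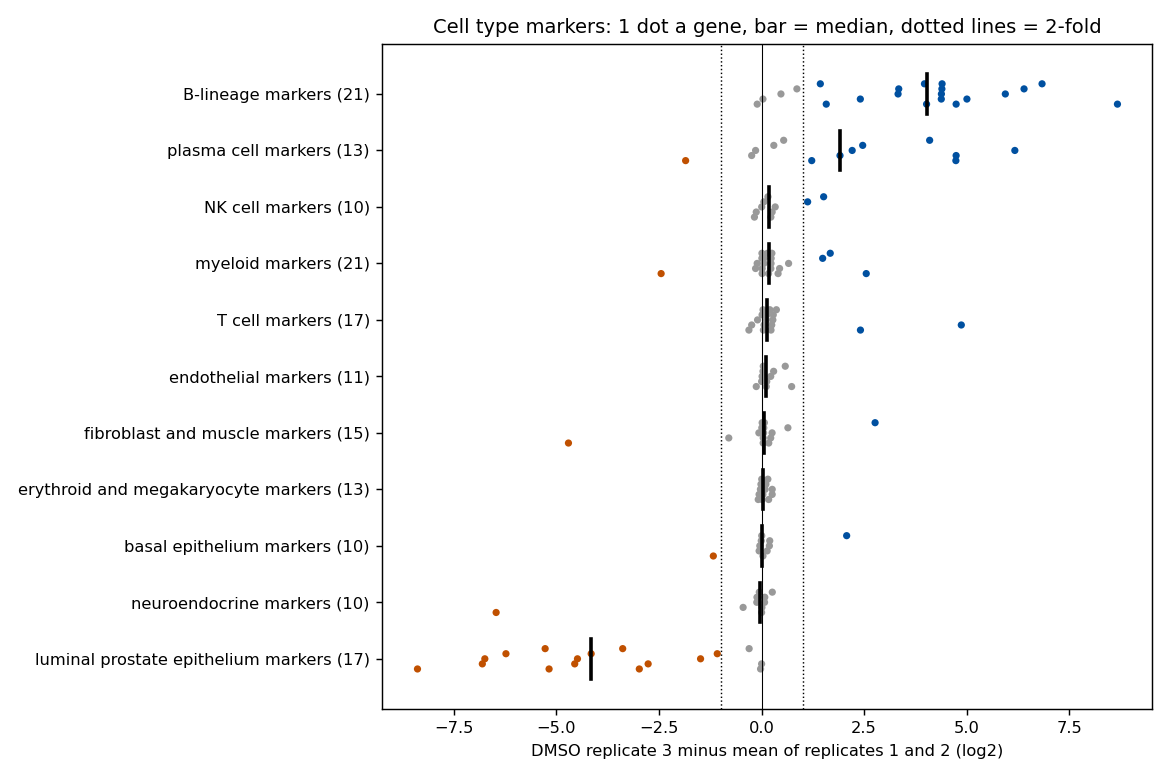
Each dot is 1 marker gene, placed by its level on DMSO replicate 3 minus the mean of replicates 1 and 2 (log2, x axis), with 1 row a cell type; bars are medians and dotted lines mark 2-fold. The luminal row has its median at -4.15, the B-lineage row at 4.02 and the plasma cell row at 1.91. The T cell, NK cell and myeloid rows have medians of 0.13, 0.19 and 0.17.

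The largest differences toward replicates 1 and 2 included genes of several kinds. EEF1A2, a tissue-restricted translation elongation factor, stood at 11.87, 11.89 and 4.11, and SELENBP1, a selenium-binding protein gene, at 12.41, 12.41 and 4.86. SPON2, which encodes a secreted matrix protein, stood at 12.55, 12.59 and 5.07. The actin-binding caldesmon gene CALD1 stood at 11.80, 11.89 and 4.38, a 177-fold lower level on replicate 3. GULP1, an engulfment adaptor, differed by -6.83, CAMK2N1, an inhibitor of CaM kinase II, by -6.77, the stress-response gene NUPR1 by -6.72 and BEX3 by -7.09. The cancer-testis antigen genes GAGE7 and MAGEA3 differed by -6.71 and -6.63. Both have near-identical copies, so their probe sets cannot be assigned to 1 gene with certainty.

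**Figure D3:**
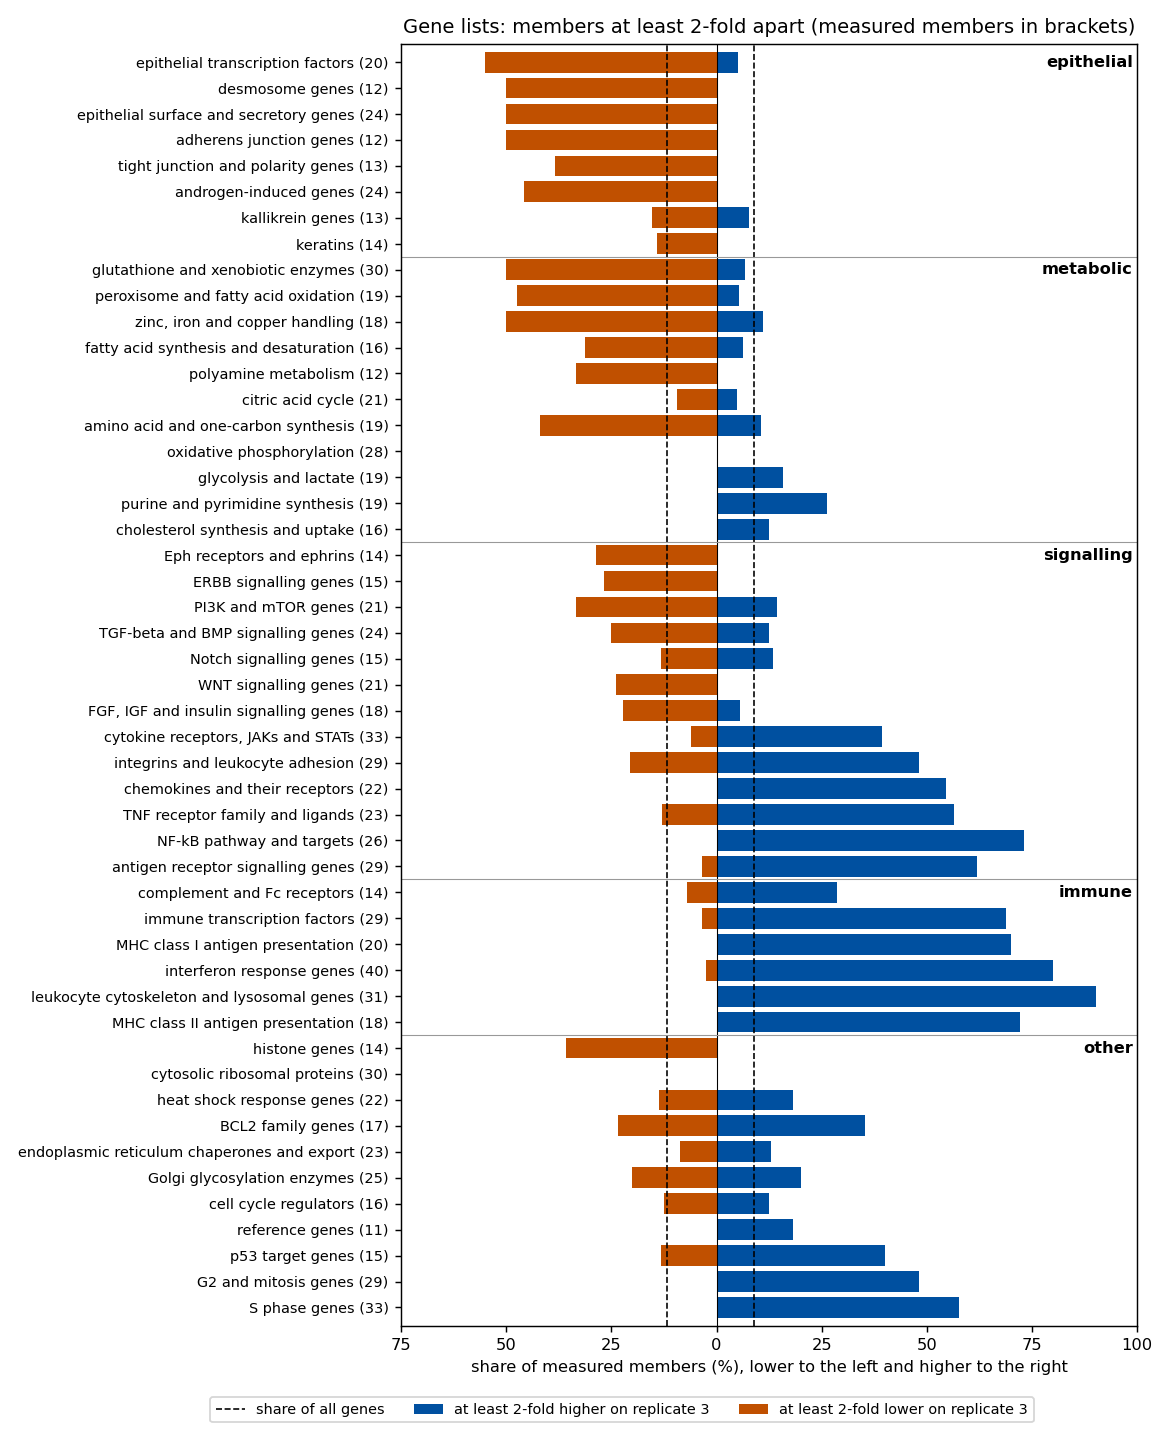
For each gene list, the bars give the share of measured members at least 2-fold lower (orange, to the left) and at least 2-fold higher (blue, to the right) on DMSO replicate 3, in percent on the x axis; dashed lines mark the shares over all genes, 11.8% lower and 8.81% higher. Epithelial lists extend mostly to the left and immune lists mostly to the right, and oxidative phosphorylation and cytosolic ribosomal proteins have no bar.

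Each class of cell junction genes listed had lower members and 0 higher ones on replicate 3. Among 12 adherens junction genes, 6 were at least 2-fold lower and 0 higher. The catenin genes that tie cadherins to actin were among them, with JUP at 8.98, 8.98 and 4.98 and CTNNB1, the beta-catenin gene, at 9.89, 10.03 and 7.87. CTNNB1 thus stood above the median of replicate 3 while lower there. Among 13 tight junction and polarity genes, 5 were lower and 0 higher. The claudin gene CLDN7 stood at 9.64, 9.62 and 4.86, and TJP1, which encodes the scaffold ZO-1, at 8.85, 9.07 and 4.73. Among 12 desmosome genes, 6 were lower and 0 higher, led by the desmoplakin gene DSP at 9.27, 9.24 and 5.06 and the plakophilin gene PKP3 at 7.90, 7.87 and 4.36. Of 14 keratin genes, KRT18 and KRT8 were lower and the other 12 within 2-fold. That share of 14.3% is near the background of 11.8%.

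Epithelial regulators and secreted products followed the same direction in 11 of 20 transcription and splicing factors and in 12 of 24 surface and secretory genes. GATA2, a zinc finger transcription factor, stood at 8.55, 8.68 and 4.25, and the pioneer factor FOXA1 at 8.03, 8.21 and 4.73. ESRP1 and ESRP2, regulators of epithelial splicing, differed by -4.13 and -3.66. GRHL2, a regulator of junction genes, differed by -3.03. GATA3 was the 1 factor of this list at least 2-fold higher, at 4.08, 4.14 and 6.52. Among surface genes, the tetraspanin gene CD9 stood at 11.64, 11.74 and 5.17. SPINT2, a serine protease inhibitor, stood at 10.60, 10.67 and 4.37, and the protease gene HPN at 9.12, 9.14 and 4.10. SLPI, another protease inhibitor gene, was within 2-fold at -0.49.

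Androgen-induced genes were split between lower members and members within 2-fold. Of 24 measured, 11 were at least 2-fold lower, 0 were higher, and the median difference was -0.55. PLPP1, a lipid phosphatase, stood at 10.38, 10.43 and 5.35, the serine protease gene TMPRSS2 at 7.38, 7.41 and 4.41 and NDRG1 at 6.88, 7.01 and 4.07. FKBP5, an immunophilin that binds steroid receptor complexes, stood at 6.56, 6.51 and 6.96 and was within 2-fold, as was ELL2. Of 13 kallikrein genes, KLK3 and KLK2 were lower and KLK1 was higher by 1.81. These shares of 15.4% and 7.69% are near the background of 11.8% and 8.81%. The promoter of KLK3 is shown because it carried the letters AGAACA, a part of an androgen response element. The match lay 170 bases before the start, within the 250 bases searched on both strands. It was the 1 of 18 androgen-induced promoters with a match (5.56%). The share was 12.4% of all 27305 promoters and 8.44% of those of measured genes. With 1 match, whether this list differs from those shares cannot be told. The reference sequence, from RefSeq (GRCh38.p14, chr19:50854665-50854914 on the plus strand), reads 5′ to 3′ with the match in capitals.
KLK3: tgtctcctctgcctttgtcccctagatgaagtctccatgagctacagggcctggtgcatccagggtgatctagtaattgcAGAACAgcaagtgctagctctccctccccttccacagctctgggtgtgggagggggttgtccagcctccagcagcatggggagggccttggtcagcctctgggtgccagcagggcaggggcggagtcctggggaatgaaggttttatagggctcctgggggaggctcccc

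Among 16 fatty acid synthesis and desaturation genes, 5 were at least 2-fold lower and 1 higher. The fatty acid synthase gene FASN stood at 10.37, 10.09 and 8.15, the lipogenic regulator SREBF1 at 8.59, 8.65 and 6.09 and the malic enzyme gene ME1, a source of NADPH, at 9.02, 9.21 and 6.56. ACSL5, an acyl-CoA synthetase, was the member higher on replicate 3, at 4.34, 4.29 and 6.70. Among 19 peroxisome and fatty acid oxidation genes, 9 were lower and 1 higher. CPT1A, which admits fatty acids into mitochondria, stood at 9.98, 9.88 and 6.92, and AMACR, a racemase of branched fatty acids, at 8.79, 8.95 and 6.10. Of 16 cholesterol genes, 0 were lower and 2, SQLE and FDPS, were higher, by 1.42 and 1.43. That share of 12.5% is near the background of 8.81%.

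None of 28 oxidative phosphorylation genes was 2-fold apart in either direction, and their median difference was -0.12. Of 19 glycolysis and lactate genes, 0 were lower and 3 were higher (15.8%), namely HK2, PFKP and SLC2A3. Their median difference was 0.08. The hexokinase gene HK2 stood at 4.14, 4.14 and 5.79. Of 21 citric acid cycle genes, IDH1 and SUCLG2 were lower and IDH3A was higher. These shares of 9.52% and 4.76% were no larger than the background of 11.8% and 8.81%. IDH1, the cytosolic isocitrate dehydrogenase gene, stood at 10.51, 10.56 and 8.50, and IDH3A, a subunit of the mitochondrial enzyme, at 6.03, 6.09 and 8.19.

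Of 19 amino acid and one-carbon genes, 8 were at least 2-fold lower and 2 higher. The 3 enzymes that make serine from a glycolytic intermediate were all lower, with PHGDH at 9.60, 9.60 and 5.11, PSAT1 at 9.98, 10.11 and 7.23 and PSPH at 8.03, 8.06 and 4.23. CBS, which channels homocysteine toward cysteine, stood at 9.22, 9.22 and 4.16, and ASS1, the argininosuccinate synthase gene, at 9.16, 9.27 and 4.64. ASNS and PYCR1, which make asparagine and proline, differed by -1.59 and -1.33. Higher members were BCAT1 and MTHFD1, by 1.54 and 1.17. Of 12 polyamine genes, 4 were lower and 0 higher, and AMD1, which makes the aminopropyl donor, stood at 10.90, 10.86 and 7.89. Of 19 purine and pyrimidine genes, 0 were lower and 5 were higher, led by PFAS at 5.22, 5.34 and 7.63 and the ribonucleotide reductase subunit gene RRM2 at 9.88, 10.08 and 11.70.

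Detoxification and metal handling lists had more lower than higher members. Of 30 glutathione and xenobiotic genes, 15 were at least 2-fold lower and 2 higher. The epoxide hydrolase gene EPHX1 stood at 10.35, 10.25 and 4.41, and NQO1, a quinone reductase, at 10.59, 10.77 and 8.07. GSTP1, the pi-class glutathione transferase gene, went the other way at 4.29, 4.35 and 9.15, so it was dim on replicates 1 and 2 and bright on replicate 3. Of 18 zinc, iron and copper genes, 9 were lower and 2 higher. SLC30A4, a zinc exporter, stood at 9.28, 9.59 and 4.47, and the metallothionein gene MT1X at 7.95, 7.78 and 5.64.

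Growth factor pathway lists had more lower than higher members on replicate 3, as did all genes (11.8% lower, 8.81% higher). Most members of each list were within 2-fold. Of 15 ERBB pathway genes, 4 were at least 2-fold lower (26.7%) and 0 higher, with a median difference of -0.29. The receptor gene ERBB2 stood at 9.22, 9.17 and 4.17 and ERBB3 at 9.20, 8.96 and 4.20. Of 14 Eph receptor and ephrin genes, 4 were lower (28.6%) and 0 higher, led by EFNA1 at 8.47, 8.66 and 4.15. Their median difference was -0.40. Of 18 FGF, IGF and insulin pathway genes, 4 were lower (22.2%) and 1 higher (5.56%), with a median difference of 0.03. In that list 12 genes were dim on both sides. GRB10, an adaptor that restrains insulin receptor signalling, stood at 11.37, 11.50 and 4.94, and IGFBP3, which binds insulin-like growth factors, at 9.39, 9.46 and 4.53. Of 21 WNT pathway genes, 0 were higher and 5 were lower (23.8%), among them the receptor genes FZD6 and LRP6. The median difference of this list was -0.02.

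Of 24 TGF-beta and BMP genes, 6 were at least 2-fold lower and 3 higher. The ligand gene TGFB1 stood at 4.27, 4.23 and 9.44, whereas the BMP target gene ID1 stood at 10.34, 10.42 and 4.49. Of 15 Notch genes, 2 were lower (13.3%) and 2 higher (13.3%), shares near the background of 11.8% and 8.81%. The lower ones were the ligand genes JAG1 and JAG2, with differences of -2.43 and -2.61. The higher ones were MFNG, a glycosyltransferase that modifies Notch, by 3.67 and DTX4 by 2.28. Of 21 genes of the PI3K and mTOR list, 7 were lower and 3 higher. TSC2, a brake on mTOR, stood at 9.52, 9.42 and 6.43, and INPP5D, which encodes the leukocyte phosphatase SHIP1, at 4.37, 4.37 and 8.47.

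Many of the largest differences toward replicate 3 were those of leukocyte genes. Of 31 leukocyte cytoskeleton and lysosomal genes, 28 were at least 2-fold higher (90.3%), 0 were lower, and the median difference was 3.75. This list was chosen with earlier results of these data known, so its count is no separate support. The genes named next, some of them outside the list, include several of the 15 largest rises. ARHGDIB, an inhibitor of small GTPases in leukocytes, stood at 4.36, 4.36 and 12.19. LAPTM5, a lysosomal membrane protein gene, stood at 4.69, 4.46 and 12.34, and CORO1A, an actin-binding coronin, at 4.12, 4.14 and 11.70. The tetraspanin gene CD53 stood at 4.47, 4.32 and 11.38, and CD48, a leukocyte adhesion receptor, differed by 6.45. SRGN, the proteoglycan core of secretory granules, stood at 4.03, 3.99 and 11.87, and LGALS1, the galectin-1 gene, at 4.17, 4.41 and 11.50. ARHGDIB, LAPTM5, CORO1A, CD53, SRGN and LGALS1 each lay below the array median on both replicates 1 and 2.

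Antigen receptor signalling showed 18 of 29 genes at least 2-fold higher and 1, CD81, lower. The kinases next to the B cell receptor were among them, with LYN at 6.21, 6.47 and 9.52, SYK at 4.12, 4.12 and 8.01 and BTK at 4.55, 4.56 and 8.93. The adaptor gene BLNK stood at 5.52, 5.58 and 9.57. PLCG2, the phospholipase that raises calcium in B cells, stood at 4.72, 4.50 and 10.64, and PRKCB, a protein kinase C, at 4.39, 4.44 and 10.62. Further along the same route, BCL10 differed by 0.20 and MALT1 by 1.73, so 1 of these partners was within 2-fold. Of 26 NF-kB pathway and target genes, 19 were higher and 0 lower. REL, the subunit prominent in lymphocytes, stood at 4.82, 5.05 and 8.48, while RELA stood at 7.15, 7.17 and 6.72. Among targets, TNFAIP3, an inhibitor of the pathway, stood at 4.70, 4.99 and 9.87, EBI3, a cytokine subunit gene, at 4.05, 4.02 and 9.13 and TRAF1 at 4.65, 4.61 and 9.09. The kinase genes CHUK and IKBKB were within 2-fold.

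Receptors and ligands of immune cells were the next group. Of 23 TNF receptor family and ligand genes, 13 were at least 2-fold higher and 3 lower. CD70 and its receptor gene CD27 stood at 4.81, 4.78 and 9.61 and at 4.40, 4.25 and 8.34. TNFRSF1A, a TNF receptor found on most cells, stood at 7.34, 7.30 and 5.10, while TNFRSF1B, the other TNF receptor, stood at 4.08, 4.14 and 7.16. These receptors thus lay on opposite sides. Of 33 cytokine receptor, JAK and STAT genes, 13 were higher and 2, GHR and IL6ST, were lower. IL2RG, the shared gamma chain, stood at 4.54, 4.65 and 10.35, and IL2RB at 4.29, 4.40 and 10.15. STAT6, which acts downstream of IL-4, stood at 4.40, 4.05 and 8.94, and JAK1 at 5.30, 5.30 and 9.05.

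Chemokine genes showed 12 of 22 higher and 0 lower. The interferon-inducible chemokine gene CXCL10 stood at 4.29, 4.29 and 9.97, CXCL8 at 3.98, 3.86 and 9.48 and CCL22 at 4.29, 4.44 and 9.38. CCR7, the receptor that directs lymphocytes to lymph nodes, stood at 4.21, 4.08 and 9.10. Of 29 integrin and adhesion genes, 14 were higher and 6 lower. ITGB2 and ITGB7, the beta chains of leukocyte integrins, stood at 4.30, 4.17 and 9.08 and at 4.40, 4.45 and 10.08. ITGB1, the beta chain used by most adherent cells, stood at 10.34, 10.38 and 8.89, and the laminin gene LAMB2 at 7.82, 7.75 and 4.86. ITGAM and ITGAX, alpha chains of leukocyte integrins, were within 2-fold at 0.44 and 0.66.

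MHC class II antigen presentation showed 13 of 18 genes at least 2-fold higher and 0 lower, with a median difference of 3.80. CD74, a marker that defines the comparison, is among the 13. HLA-DRA, the alpha chain of HLA-DR, stood at 4.17, 4.06 and 12.11. HLA-DRB1 stood at 4.74, 4.85 and 11.78. HLA-DPA1 stood at 4.29, 4.42 and 12.28, and HLA-DMA, part of the peptide exchanger, at 5.52, 5.78 and 10.75. IFI30, a lysosomal thiol reductase, stood at 5.01, 4.99 and 10.63, and the protease gene CTSS at 4.40, 4.05 and 7.06. CIITA, the master coactivator of the class II genes, stood at 4.39, 4.53 and 5.13 and was within 2-fold, as were RFX5, RFXAP and RFXANK of the factor that binds class II promoters. Probe sets of HLA genes can read related HLA transcripts.

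Promoters of 3 class II list members that were higher are shown because they hold a CCAAT box in either direction. The inverted form, ATTGG, is that of the Y box. As printed, CD74 holds CCAAT alone, HLA-DMA holds ATTGG alone and HLA-DPB1 holds each form. The counts below take both directions together. The letters ATTGG were found on either strand within the 250 bases before the start in 11 of 14 list promoters (78.6%), against 33.0% of all 27305 promoters. The sequences are from RefSeq (GRCh38.p14), read 5′ to 3′ with matches in capitals. The window of CD74 is at chr5:150412911-150413160 on the minus strand, HLA-DPB1 at chr6:33075740-33075989 on the plus strand and HLA-DMA at chr6:32953098-32953347 on the minus strand. RFX5, within 2-fold, also held the letters, and 3 of the 14 promoters did not. A match is a description of letters and shows no binding.
CD74: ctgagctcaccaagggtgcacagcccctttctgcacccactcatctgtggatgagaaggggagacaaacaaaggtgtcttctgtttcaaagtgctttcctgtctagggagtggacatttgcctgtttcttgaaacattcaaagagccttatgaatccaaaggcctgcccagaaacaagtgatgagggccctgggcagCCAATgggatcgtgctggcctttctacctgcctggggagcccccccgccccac
HLA-DPB1: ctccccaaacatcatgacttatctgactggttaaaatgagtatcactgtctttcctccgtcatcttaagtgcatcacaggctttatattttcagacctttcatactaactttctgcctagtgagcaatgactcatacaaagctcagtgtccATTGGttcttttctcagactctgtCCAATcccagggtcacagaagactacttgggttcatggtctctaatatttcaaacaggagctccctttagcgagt
HLA-DMA: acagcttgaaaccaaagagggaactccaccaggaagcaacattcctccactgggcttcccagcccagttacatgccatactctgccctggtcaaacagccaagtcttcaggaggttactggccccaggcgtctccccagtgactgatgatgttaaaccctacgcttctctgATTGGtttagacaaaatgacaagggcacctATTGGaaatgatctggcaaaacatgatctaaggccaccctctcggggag

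MHC class I antigen presentation showed 14 of 20 genes at least 2-fold higher and 0 lower. HLA-E stood at 7.29, 7.29 and 10.98 and B2M, the light chain of class I molecules, at 10.64, 10.68 and 12.77. B2M was bright on all 3 arrays. The peptide transporter gene TAP1 stood at 6.94, 6.94 and 9.52. The immunoproteasome genes PSMB8 and PSMB9 stood at 4.60, 4.60 and 10.18 and at 4.27, 4.16 and 10.04. Chaperone genes of the same route that also serve other glycoproteins, CALR, CANX and PDIA3, were within 2-fold.

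Interferon response genes showed 32 of 40 at least 2-fold higher and 1 lower, with a median difference of 2.80. MX1, an antiviral GTPase, stood at 4.73, 4.67 and 10.70, and IFI16, a DNA sensor, at 4.12, 4.12 and 10.00. TRIM22 stood at 4.28, 4.19 and 9.93, BST2, the tetherin gene, at 4.14, 4.07 and 9.68 and IFITM1, which restricts virus entry, at 5.51, 5.51 and 10.93. The lower member was LGALS3BP, a secreted glycoprotein gene, at 5.90, 5.88 and 4.48. IFIT5, PARP12, IFI27, OASL, RSAD2, IFIT2 and IFITM3 were within 2-fold. Members of 1 family thus differed, with IFITM1 higher by 5.42 and IFITM3 different by -0.59.

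**Figure D4:**
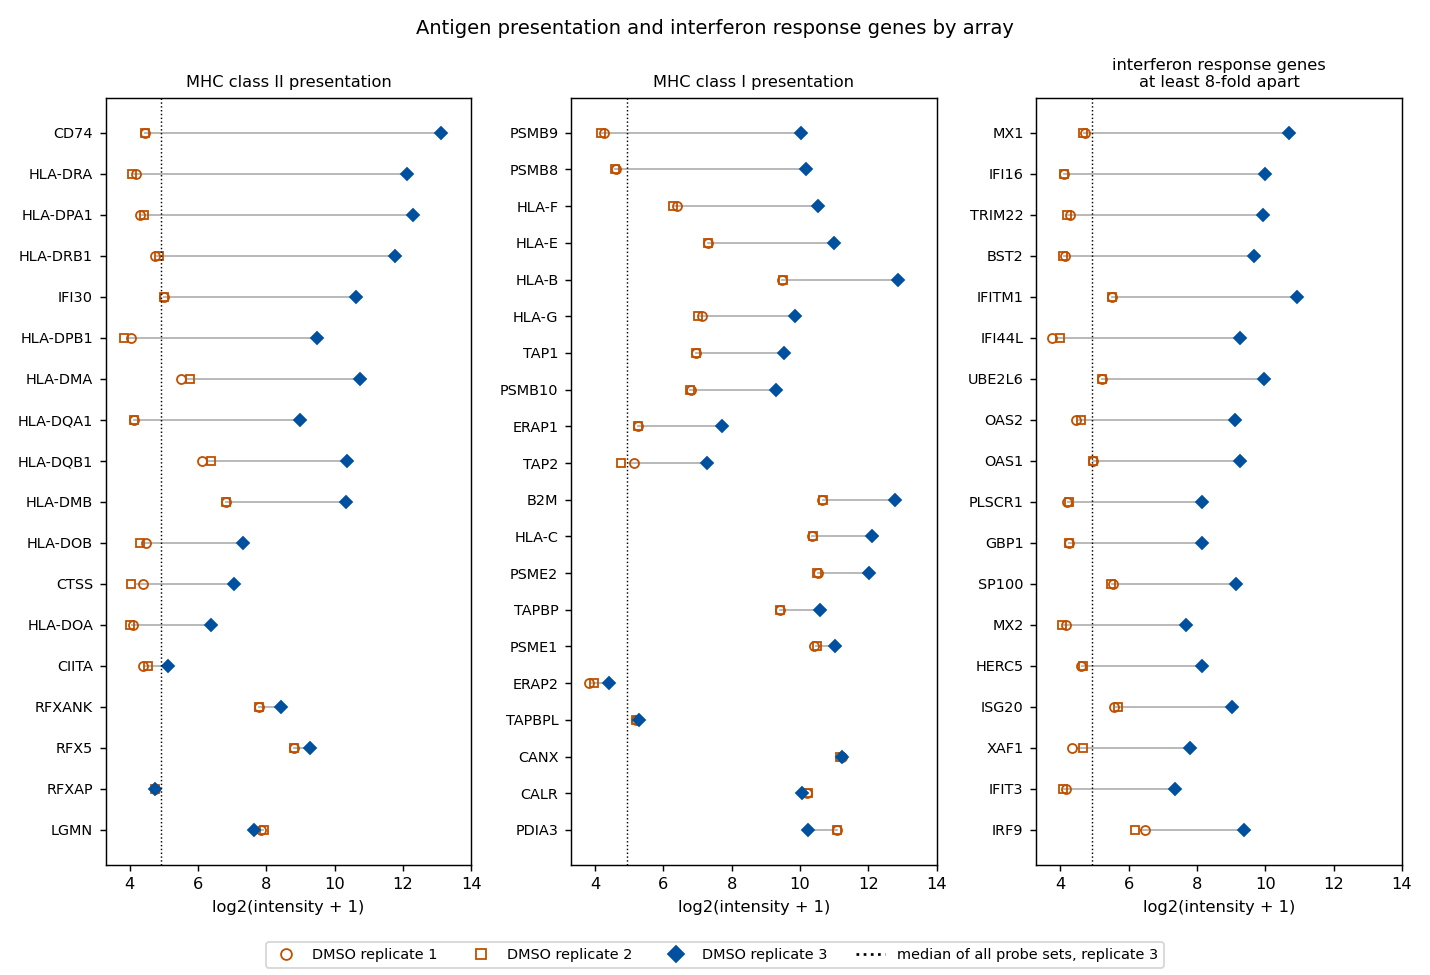
Levels as log2(intensity + 1) on the x axis for MHC class II genes, MHC class I genes and interferon response genes at least 8-fold apart, 1 gene a row, with open points for DMSO replicates 1 and 2, a filled point for replicate 3 and a dotted line at the median of replicate 3. In these lists replicates 1 and 2 lie at most 0.37 apart, and for CD74 they stand at 4.44 and 4.44 against 13.11 on replicate 3.

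The interferon-stimulated response element, 2 GAAA blocks separated by a pair of any bases, was found within the 250 bases before the start in 19 of 31 promoters of the interferon list (61.3%), against 3.07% of all 27305 promoters, with both strands searched. Among list members at least 2-fold apart, 15 of 26 promoters held it. It was also in promoters of members within 2-fold, such as IFIT5 and IFI27, and in that of LGALS3BP. IFITM1, BST2 and IFI44L are shown as members that were higher, and LGALS3BP as the member that was lower. They are RefSeq sequences (GRCh38.p14) at chr11:313790-314039 on the plus strand for IFITM1, chr19:17405631-17405880 on the minus strand for BST2, chr1:78620198-78620447 on the plus strand for IFI44L and chr17:78979924-78980173 on the minus strand for LGALS3BP. Each reads 5′ to 3′ with the element in capitals.
IFITM1: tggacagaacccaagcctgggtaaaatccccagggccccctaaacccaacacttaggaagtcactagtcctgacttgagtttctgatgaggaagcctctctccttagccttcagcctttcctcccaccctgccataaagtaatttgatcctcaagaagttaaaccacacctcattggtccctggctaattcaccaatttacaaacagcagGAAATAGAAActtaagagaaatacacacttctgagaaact
BST2: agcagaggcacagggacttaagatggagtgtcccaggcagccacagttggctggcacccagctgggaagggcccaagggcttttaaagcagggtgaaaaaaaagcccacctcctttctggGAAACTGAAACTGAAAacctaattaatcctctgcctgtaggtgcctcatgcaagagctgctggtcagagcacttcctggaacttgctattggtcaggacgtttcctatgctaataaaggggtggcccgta
IFI44L: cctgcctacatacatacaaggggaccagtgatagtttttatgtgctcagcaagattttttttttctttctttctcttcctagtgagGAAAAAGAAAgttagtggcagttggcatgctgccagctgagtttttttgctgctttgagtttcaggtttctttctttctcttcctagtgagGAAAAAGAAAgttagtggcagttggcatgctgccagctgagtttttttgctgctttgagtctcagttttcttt
LGALS3BP: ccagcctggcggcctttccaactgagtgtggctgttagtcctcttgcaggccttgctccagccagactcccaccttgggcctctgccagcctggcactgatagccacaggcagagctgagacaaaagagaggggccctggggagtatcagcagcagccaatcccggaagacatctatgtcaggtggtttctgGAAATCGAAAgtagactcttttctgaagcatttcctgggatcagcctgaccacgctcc

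The octamer ATTTGCAT was found in 1 of 14 B-lineage promoters (7.14%), that of VPREB3, against 1.66% of all promoters. The forkhead letters TGTTTAC were found in 0 of 9 luminal marker promoters, against 2.98% of all. Both were searched on both strands, and a missing match says only that these letters are not in this window.

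Immune transcription factors showed 20 of 29 genes at least 2-fold higher and 1 lower. RUNX3 stood at 4.03, 4.03 and 10.25, and MEF2C at 4.64, 4.42 and 9.72. The Ikaros gene IKZF1 stood at 4.57, 4.62 and 8.08, and IRF8 at 4.88, 4.57 and 8.85. BCL6, a repressor of germinal centre B cells, was the lower member at 7.64, 7.77 and 5.47. PRDM1, a repressor that directs plasma cell formation, stood at 4.09, 3.97 and 5.94. Of 14 complement and Fc receptor genes, 4 were higher, and 1, CD46, was lower. FCGR2B, the inhibitory IgG receptor gene, stood at 5.11, 4.75 and 8.38.

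In 9 of 23 gene families examined, 1 or more members were at least 2-fold higher and 1 or more at least 2-fold lower. The families were chosen with earlier results of these data known, and 21 of the 23 had a higher member. Families outside this set were not counted, so these counts have no background share. CTTN, the cortactin gene of adherent cells, stood at 7.57, 7.57 and 4.89, and its leukocyte relative HCLS1 at 4.36, 4.36 and 10.54. Among D-type cyclins, CCND1 stood at 8.41, 8.15 and 5.73, CCND2 at 4.03, 4.24 and 9.98 and CCND3 at 7.92, 7.77 and 8.21. GATA2 and GATA3 differed by -4.36 and 2.41. The ETS factor gene EHF differed by -3.33 and SPIB by 3.97. The named members of each of these families thus included genes on opposite sides, which follows in part from how the families were chosen.

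Of 7 genes of the RAC GTPase family list, 3 were at least 2-fold higher and 2 lower. RAC1 stood at 11.33, 11.33 and 11.14, and RAC2, its blood cell relative, at 4.27, 4.27 and 11.01. CDC42 differed by 1.80, RHOB by -2.50 and RHOC by -1.46, so widely expressed members lay on both sides. ARHGDIA stood at 9.59, 9.59 and 9.59, so its difference was 0.00 against 7.83 for ARHGDIB. The constitutive proteasome genes PSMB5, PSMB6 and PSMB7 differed by -1.04, -0.40 and -0.53, of which PSMB5 is past 2-fold. Their interferon-inducible counterparts PSMB8, PSMB9 and PSMB10 differed by 5.59, 5.82 and 2.50. Of 8 interferon regulatory factor genes, 7 were at least 2-fold higher. Of 7 SRC family kinase genes, 5 were higher, SRC itself by 2.00, and 1, YES1, was lower.

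**Figure D5:**
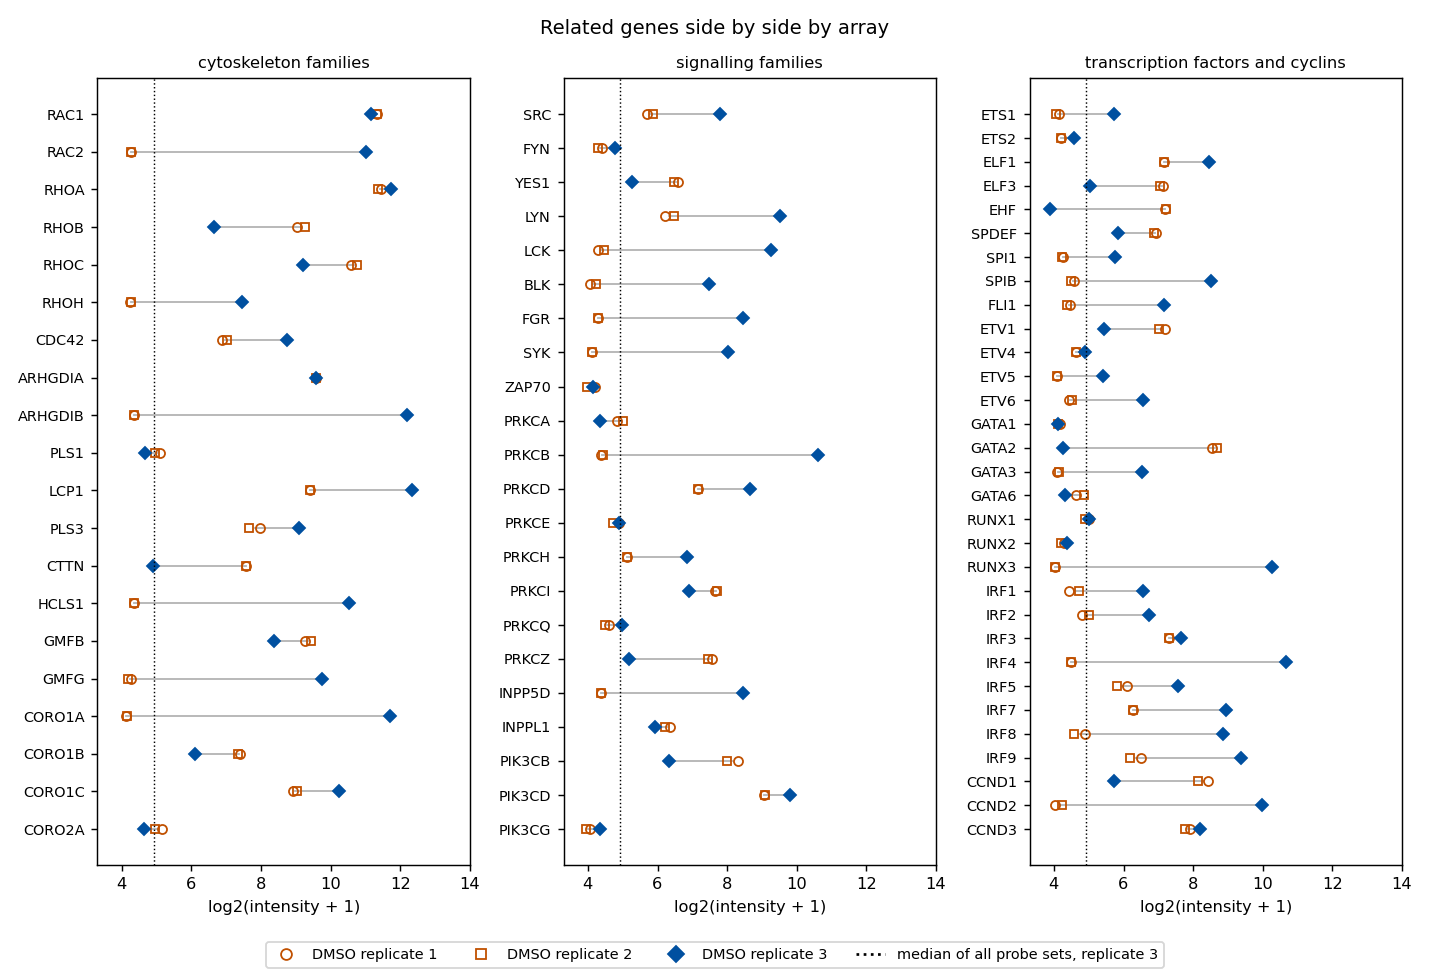
Levels as log2(intensity + 1) on the x axis for related genes of the cytoskeleton, of signalling and among transcription factors and cyclins, 1 gene a row, with open points for DMSO replicates 1 and 2, a filled point for replicate 3 and a dotted line at the median of replicate 3. CTTN stands at 4.89 on replicate 3 and below its level on replicates 1 and 2, and HCLS1 at 10.54 and above it.

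Genes of DNA replication and mitosis had higher members and 0 lower ones. Of 33 S phase genes, 19 were at least 2-fold higher and 0 lower, with a median difference of 1.09. MCM5, part of the replicative helicase, stood at 7.44, 7.42 and 9.58, and the DNA ligase gene LIG1 at 5.73, 5.73 and 7.51. Of 29 G2 and mitosis genes, 14 were higher and 0 lower. MKI67, the Ki-67 gene, stood at 7.59, 7.67 and 10.08, while CDK1 stood at 9.89, 9.95 and 9.48. Of 14 histone genes, 5 were lower and 0 higher. Of 15 p53 target genes, 6 were higher and 2 lower, with SESN1 at 9.04, 9.07 and 4.75 and FAS at 5.33, 5.55 and 8.70. Of 17 BCL2 family genes, 6 were higher and 4 lower. BAX, which promotes cell death, stood at 4.76, 4.63 and 8.88, and the survival genes BCL2 and BCL2A1 at 4.51, 4.55 and 7.47 and at 4.35, 4.15 and 8.47. Members with opposite roles in cell death were thus higher together.

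None of 30 cytosolic ribosomal protein genes was 2-fold apart in either direction, with a median difference of -0.16. Of 23 endoplasmic reticulum genes, 3 were higher and 2 lower. Of 22 heat shock response genes, 4 were higher and 3 lower. HSPA1A stood at 4.08, 4.19 and 7.51 and HSPA1B at 8.93, 9.02 and 5.78, but these near-identical copies share sequence and their split is uncertain. Of 25 Golgi glycosylation genes, 5 were higher (20%) and 5 lower (20%). The sialyltransferase gene ST6GAL1 stood at 4.66, 4.84 and 9.75, and ST3GAL1 at 9.70, 9.75 and 4.76, so enzymes that add sialic acid in different linkages lay on opposite sides. Among 11 reference genes, B2M and TFRC were higher (18.2%) and the other 9, GAPDH and ACTB included, were within 2-fold.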

How the data were processed

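The 5 arrays measured 22215 probe sets. The authors deposited intensity values on a linear scale, made by RMA per the submitters' processing notes, and its version is not given in the sources used here. The 3 DMSO arrays were used, with levels as log2(intensity + 1). Of the probe sets, 19724 name 1 gene, 568 several and 1923 none here. A gene is its single-gene probe set with the highest mean of both profiles, replicates 1 and 2 counting as 1 profile. Genes of the Y chromosome and XIST were left out. A gene is past the threshold at 2-fold from the mean of replicates 1 and 2. No test was run, because replicate 3 is a single array, and the number of arrays limits the precision. The members and lists were chosen with earlier results of these data known. Named genes are the markers of the comparison, the 15 largest differences each way, up to 5 members a list and direction, family members and reference genes; others, named as within 2-fold or as counterparts, were chosen after their values were seen. Motifs were searched in the 250 bases before the start of 27305 RefSeq promoters (GRCh38.p14). The calculation, in Python 3.11.15 with pandas 2.3.3 and numpy 2.4.6, was checked on simulated data. Alternatives were another offset, fold, quantile scaling, probe set choice, a dim filter and leaving out an array.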

Additional observations from a re-analysis of the deposited data

How the results depend on the processing

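With a 4-fold threshold 474 genes were higher and 507 lower on replicate 3. The median difference of the luminal markers was -3.50 with log2(intensity + 16), -3.39 with the median over a gene's probe sets and -4.52 without dim genes. That of the B-lineage markers was 3.55, 3.97 and 4.38 under these settings, 4.16 with quantile scaling, 3.97 with the probe set brightest over all 5 arrays, and 4.01 to 4.05 with replicate 1 or 2 left out. For MHC class II genes it was 3.60 with log2(intensity + 16), 3.93 with quantile scaling and 3.22 with the median over probe sets, and for interferon response genes 2.46, 2.91 and 2.46. With replicate 1 or 2 left out, luminal medians ranged from -4.22 to -4.09, class II from 3.74 to 3.86 and interferon from 2.73 to 2.87; 1053 to 1078 genes were higher and 1420 to 1457 lower. The median over probe sets turned the sign of ACVR1B (0.022), BUB1 (-0.096), RHEB (0.013) and SMAD6 (0.25), and the cause was not tested. Of 501 genes of the lists and families past 2-fold, 443 stayed past it under that setting and 460 with log2(intensity + 16), against 490 to 501 under the other settings (498 of the 498 left by the dim filter). Of 16 lists with a median past 1, 14 and 12 stayed past 1 under these settings, against 14 to 16 under the others. No paired analysis was possible because the result comes from no test and replicate 3 has no partner. Leaving out replicate 3 leaves no comparison.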

Other observations

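Measured genes that are neighbours in the RefSeq gene order (GRCh38.p14) sometimes stood on the same side together, and these runs were picked out after their values were seen. On chromosome 2 the 6 neighbours SP110, SP140, SP140L, SP100, CAB39 and ITM2C were all at least 2-fold higher on replicate 3, by 1.04 to 4.49 on the log2 scale. On chromosome 1 the 4 SLAM family neighbours CD84, SLAMF1, CD48 and SLAMF7, receptors of leukocytes, were higher by 1.75 to 6.45. On chromosome 19 the TNF ligand genes TNFSF9, CD70 and TNFSF14 were higher with TRIP10, by 1.10 to 4.82. In the other direction, the metallothionein genes MT1F, MT1G, MT1H and MT1X on chromosome 16 were lower with NUP93, with differences of -2.22 to -1.01. DDC, GRB10, COBL and EGFR on chromosome 7 were lower, with differences of -6.49 to -1.58. Metallothionein genes are close copies, so their probe sets may not separate them. DTNB, a dystrobrevin gene, was the 1 gene whose probe sets were at least 2-fold apart in opposite directions, at -1.84 and 4.83, and the other stood at -0.03.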
